A study of Mus musculus with 6 samples.

Results

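The genes described here are 10 enzymes and partners that write, erase or read repressive chromatin marks, namely Dnmt1, Dnmt3a, Dnmt3b, Uhrf1, Tet1, Tet2, Tet3, Ezh2, Suz12 and Bmi1. They were chosen by symbol, and each matched 1 of the 24214 RefSeq features listed for every library. Total RNA from 393P cells, a mouse lung cancer line of the KP series, was sequenced on the SOLiD platform as 3 libraries of cells carrying an empty vector (393P_vector) and 3 of cells transfected with a ZEB1 expression vector (393P_ZEB1). Both lines share the C57BL/6 strain and the same serum-supplemented RPMI-1640 medium, and both were stable transfectants kept after antibiotic selection, as the study's methods describe its lines. Whether either line is a single clone, what drives the transgene, and whether the 3 libraries of a line came from separate cultures are not given in the sources used here, so p-values measure only the spread between these libraries, which may be technical. The comparison addresses what ectopic ZEB1, a repressor that drives epithelial-to-mesenchymal transition (EMT), did to the transcripts of this machinery. Any other difference between the 2 lines cannot be told apart from it. No DNA methylation or histone mark was measured here.

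DNA methylation is laid down on unmethylated DNA by the de novo methyltransferases Dnmt3a and Dnmt3b and is copied after replication by Dnmt1, which Uhrf1 recruits to half-methylated sites. The Tet enzymes oxidise 5-methylcytosine and so begin its removal. Polycomb repressive complex 2 (PRC2) methylates lysine 27 of histone H3 through Ezh2 or its paralog Ezh1, with Suz12 as an obligate subunit, and Polycomb repressive complex 1 (PRC1) ubiquitinates histone H2A through a RING protein paired with a Pcgf protein such as Bmi1. In epithelial cancers these enzymes are known as part of the silencing of epithelial and tumor suppressor genes, and ZEB1 and the miR-200 family repress each other in EMT.

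Several of these transcripts carry letters that match seeds of microRNAs known in EMT or known to act on DNA methyltransferases, so the microRNAs and sites are shown first. The mature sequences are from RefSeq (GRCm38.p6), and capitals mark the seed, bases 2 to 8. The first 3 share 1 seed, the next 2 share another, and miR-29a has its own.
mmu-miR-200b-3p: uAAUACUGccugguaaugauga
mmu-miR-200c-3p: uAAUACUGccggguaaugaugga
mmu-miR-429-3p: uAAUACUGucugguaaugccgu
mmu-miR-200a-3p: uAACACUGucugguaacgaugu
mmu-miR-141-3p: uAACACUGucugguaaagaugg
mmu-miR-29a-3p: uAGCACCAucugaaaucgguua

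For every gene, 1 coding transcript, the longest in GENCODE M21 (GRCm38), supplied the 3′ UTR. It was searched on the transcript strand for the complements of those seeds, which are CAGTATT for the first, CAGTGTT for the second and TGGTGCT for that of miR-29a. CAGTATT occurred once each in Dnmt3a, Suz12 and Bmi1 and in 15.8% of the 11978 tested genes with a 3′ UTR. CAGTGTT occurred in Suz12, Dnmt3b and all 3 Tet genes and in 2512 of those 11978 genes, and TGGTGCT occurred 5 times in Dnmt3a, once in Dnmt3b, 7 times in Tet1, 5 times in Tet2 and 8 times in Tet3 and in 15.9% of tested genes. The 3′ UTRs of Dnmt1, Uhrf1 and Ezh2, 312, 984 and 402 bases long, held none of these 3. Those of Dnmt3a, Tet1, Tet2 and Tet3 had 6696, 7955, 3058 and 5669 bases against a median of 1183 over tested genes. A longer 3′ UTR has more places for a match, and the counts were not adjusted for length. The seeds of miR-101a, miR-101b, miR-26a and miR-203 were searched as well, and their sites are not printed. The 3′ UTR of Ezh2 held 2, 1, 1 and 0 matches to them, in that order. Such matches occurred in 11.5%, 14.5%, 11.5% and 17.3% of tested genes. Dnmt1 and Uhrf1 held none, and each other gene held at least 1. The sites shown lie on plus-strand genes and carry their flanks, with the match in capitals, extended by a base where that base is an A.
Dnmt3a, seed of miR-200b, chr12:3908406-3908434: acacttttctaCAGTATTtcaggtgccta
Suz12, seed of miR-200b, chr11:80033490-80033519: gacttgtcatcCAGTATTAagttcttagtt
Bmi1, seed of miR-200b, chr2:18685157-18685185: ataacaggaaaCAGTATTgtatgatatat
Suz12, seed of miR-200a, chr11:80032291-80032319: ttgggaacaggCAGTGTTcgatgatgtca
Dnmt3b, seed of miR-200a, chr2:153687315-153687343: ccttatctgagCAGTGTTtggggaactac
Dnmt3a, seed of miR-29a, chr12:3911394-3911423: ggggaggtagcTGGTGCTAgcaccagggtc
Dnmt3a, seed of miR-29a, chr12:3911463-3911492: gggtcccaagcTGGTGCTAattcctctcat
A match is a description of the sequence and not evidence of binding.

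Promoters were searched in the same way, on both strands of the RefSeq windows that run from 250 bases before to 50 after a start site, for CAGGTG, the E-box that ZEB1 is known to bind, and for TTTGGCGC and TTTCCCGC, forms of the site of the cell-cycle factors E2F. All 10 genes matched, with 15 windows. CAGGTG was in 20.2% of all 32851 windows, TTTGGCGC in 0.514% and TTTCCCGC in 1.07%. The matches are printed on the strand of the gene with the motif in capitals, and positions count from the start site to the first base of the motif.
Dnmt3b, position -247, chr2:153649199-153649218 (plus): tctCAGGTGgagagggctgg
Dnmt1, position 36 of its most upstream start site, chr9:20959839-20959864 (minus): gaaggaaccatCAGGTGgaagccctc
Ezh2, position 4, chr6:47595009-47595038 (minus): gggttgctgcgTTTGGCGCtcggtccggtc
Dnmt1, position 34 of another start site, chr9:20952574-20952601 (minus): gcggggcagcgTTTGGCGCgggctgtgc
Suz12, position -219, chr11:79992876-79992905 (plus): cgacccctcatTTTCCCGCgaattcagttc
The windows of Dnmt3a, Uhrf1, the Tet genes and Bmi1 held none of the 3 motifs. The windows with the most CpG dinucleotides were those of Tet2, with 57, Dnmt3a, with 47, and Suz12, with 41, against a median of 7 over all windows.

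Libraries held between 54442450 and 79158012 counted reads, and a gene was treated as detected from 3 counts, or 0.0361 to 0.0561 CPM (the usual counts-per-library unit, with TMM-normalized library sizes). Zeb1, the check of the labels, rose from 21.5 ± 0.435 to 51.7 ± 3.01 CPM (SD, n = 3), and its counts include any transgene reads that align to it. Of 8 epithelial markers 7 fell, Epcam from 122.3 ± 51.8 to 1.31 ± 0.611 CPM. The alveolar lineage markers Nkx2-1, Sftpc, Sftpb and Sftpa1 summed to at most 0.198 CPM in any library, so the labelled lung tissue does not show as alveolar identity, and 5 leukocyte markers summed to 1.21 to 3.62 CPM. 393P_vector replicate 3 stood apart from its group. Of tested genes, 8.24% and 9.03% differed at least 2-fold between it and 393P_vector replicates 1 and 2, against 1.95% to 2.68% for other pairs within a group. Across 12716 genes, its deviation from the other 2 libraries of its group correlated with transcript GC content at a Spearman rho of -0.42, a description over genes of the same library, against -0.36 to 0.46 for the other libraries. Dnmt1, Dnmt3a and Tet3, whose levels were lowest in it, have transcripts of 54.0%, 51.9% and 53.4% GC, and Dnmt3b, which was only 0.10 lower in it on the log2 scale, 53.1%. With a GC trend taken off each library, their log2 fold changes were -0.27 for Dnmt1, 1.03 for Dnmt3a, 0.18 for Tet3 and -1.97 for Dnmt3b, and the same 4 of the 10 genes passed the threshold. With the trend off, 393P_vector replicate 3 stayed lowest of its group for Dnmt1, Dnmt3a and Tet3. Dnmt3a was then at 28.73 CPM in it against 43.05 and 42.57 CPM in replicates 1 and 2. Before that step, Uhrf1, Ezh2 and Suz12 (53.7%, 44.4% and 41.6% GC) were 0.36, 0.21 and 0.20 lower in it. Tet1 and Bmi1 (43.7% and 40.2% GC) were 0.29 and 0.12 higher, and Tet2 differed by -0.002. Whole chromosomes were also shifted, from a median log2 fold change of -0.43 on chromosome 17 to 0.64 on chromosome 18, so each of the 10 genes is given beside the median of its chromosome, each ratio also relative to the medians, and another named gene where that changed its call. In bulk RNA, fewer cells of a type and less RNA per cell cannot be told apart.

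In 393P_ZEB1 cells the transcripts of the DNA methylation machinery moved in both directions. Dnmt3a and Tet2 approximately doubled, Dnmt3b was 4.0-fold lower and Uhrf1 was 1.75-fold lower, while Dnmt1, Tet1 and Tet3 and the 3 Polycomb genes Ezh2, Suz12 and Bmi1 did not pass the threshold (edgeR's quasi-likelihood test, adjusted p below 0.05 over 13892 tested genes). Thus 2 of the 10 genes rose, against 18.3% of all tested genes, and 2 fell, against 19.3%. The share called in either direction, 40.0%, lay near the background of 37.6%. All 10 passed the filter on low counts, their median log2 fold change was 0.06 against -0.02 over all tested genes, and 5 had a positive and 5 a negative value. For 6 of the 10 the libraries of the 2 groups did not overlap, against 52.8% of all tested genes. Without 393P_vector replicate 3, Dnmt1 and Ezh2 also passed as lower and Bmi1 as higher, which made 3 higher and 4 lower, and the background rose alike, to 26.2% higher and 26.8% lower, or 53.0% in all.

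**Figure D1:**
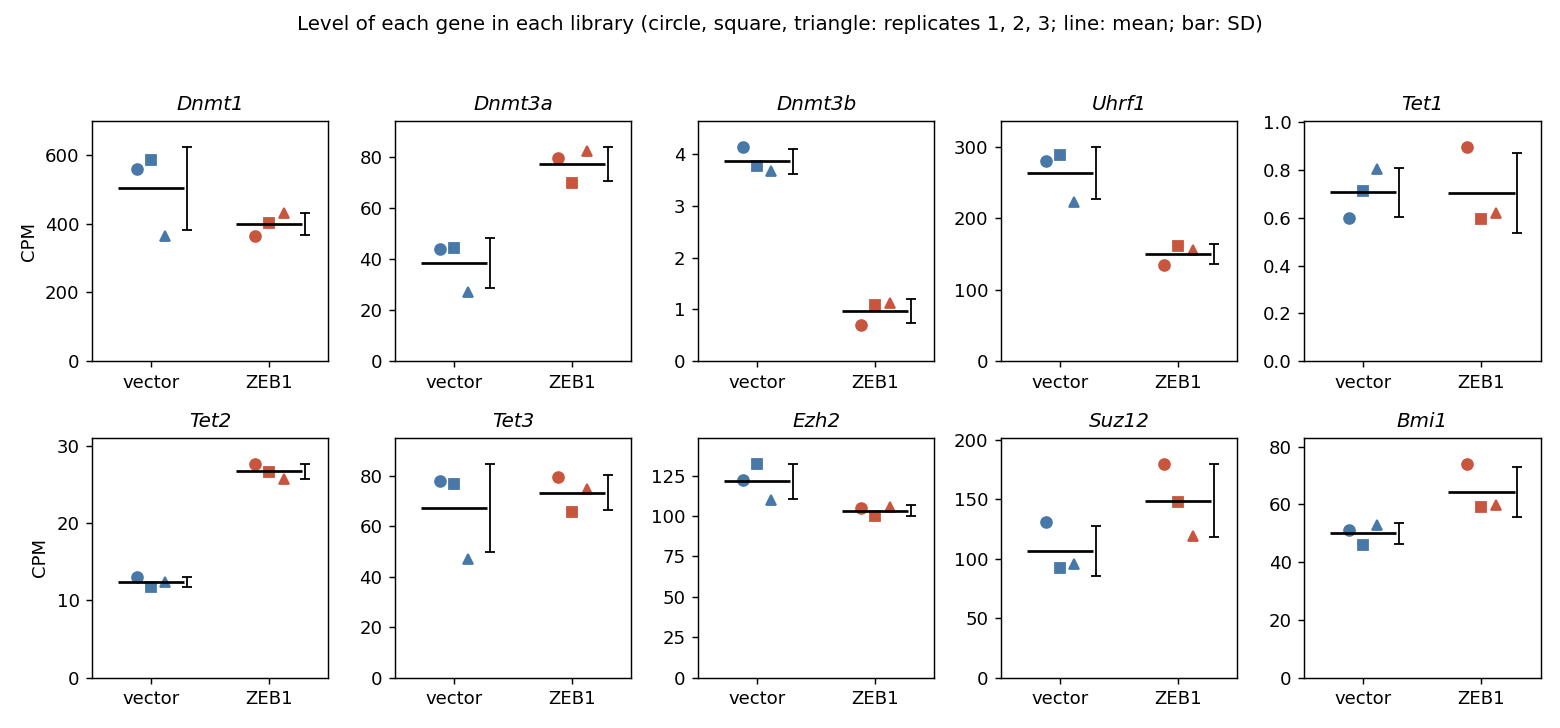
Level of each of the 10 genes in each library, in CPM on linear axes that start at 0 (circle, square and triangle for replicates 1, 2 and 3, lines for means, bars for the SD of 3 libraries). The groups are far apart for Dnmt3a, Dnmt3b, Uhrf1 and Tet2. 393P_vector replicate 3 lies below its group for Dnmt1, Dnmt3a and Tet3, and by less for Uhrf1, Ezh2 and Dnmt3b.

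**Figure D2:**
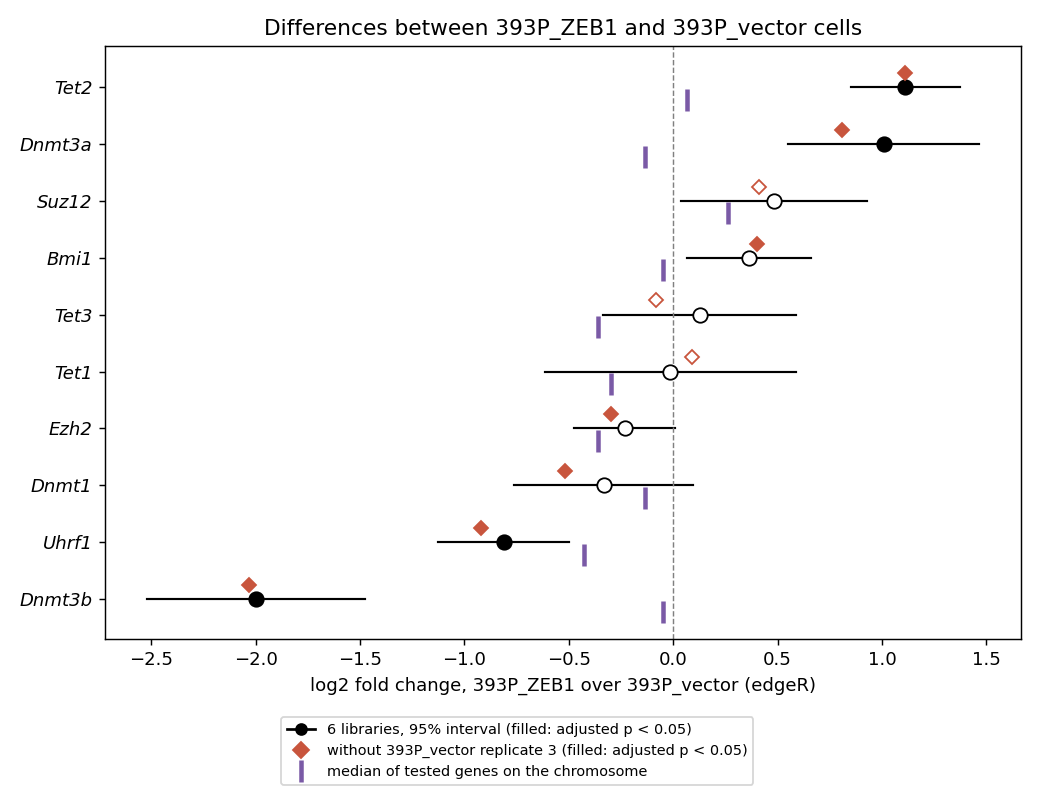
Log2 fold change of each gene in 393P_ZEB1 over 393P_vector cells with its 95% interval from edgeR (black, filled where adjusted p is below 0.05), the value without 393P_vector replicate 3 (red, filled likewise) and the median of all other tested genes on the same chromosome (purple). Dnmt3a, Tet2 and Dnmt3b lie far from their chromosome medians of -0.14, 0.06 and -0.05, whereas the interval of Ezh2 includes its chromosome median of -0.36. The interval of Uhrf1 lies below its chromosome median of -0.43, but with that median taken off Uhrf1 did not pass in edgeR (adjusted p = 0.0668).

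Maintenance methylation is described first. Dnmt1, on the minus strand of chr9:20907206-20959888, had the highest mean level of the 10 genes. Its level was 559.4, 584.8 and 364.6 CPM in 393P_vector replicates 1 to 3 and 365.7, 401.8 and 430.2 CPM in 393P_ZEB1 replicates 1 to 3. The first 2 vector libraries lay above all ZEB1 libraries, and the third lay just below them, so the groups overlapped. The log2 fold change was -0.33 (95% interval -0.76 to 0.10, adjusted p = 0.195), and it was -0.52 (adjusted p = 0.000581) without 393P_vector replicate 3, in which Dnmt1 was 0.65 lower on the log2 scale than in the other vector libraries. The median of chromosome 9 was -0.14.

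Uhrf1, which brings Dnmt1 to replicated DNA, lies on the plus strand of chr17:56303337-56323486. It was at 280.1, 288.0 and 222.0 CPM in 393P_vector cells and at 134.3, 160.4 and 155.7 CPM in 393P_ZEB1 cells, with every ZEB1 library below every vector library. The log2 fold change was -0.81 (95% interval -1.12 to -0.50, adjusted p = 0.00256), and 23.7% of tested genes had a larger absolute change. Uhrf1 was 0.36 lower on the log2 scale in 393P_vector replicate 3 than in the other vector libraries. Without that library the log2 fold change was -0.92 (adjusted p = 1.14e-05). Chromosome 17 as a whole was lower, with a median of -0.43 over 674 tested genes, and the 40 nearest tested neighbours of Uhrf1 had a median of -0.44, of which 15 fell and 0 rose. With the chromosome median taken off, 16.1% of tested genes were called higher, 14.3% lower and 30.4% in all. The difference of Uhrf1 was then -0.38 (adjusted p = 0.0668) and no longer passed. The 95% interval from the fit without that offset, -1.12 to -0.50, was not adjusted over genes. It lay below the medians of -0.43 and -0.44, but such an interval takes no account of their spread. How much of the change of Uhrf1 is shared with its chromosome was not tested. Within a library, which takes library scaling out, the ratio of Uhrf1 to Dnmt1 counts per kb of exon was 0.863, 0.849 and 1.05 in 393P_vector cells and 0.633, 0.688 and 0.624 in 393P_ZEB1 cells. The ZEB1 ratios were all lower, by 0.50 on the log2 scale (exact permutation p = 0.1, two-sided, the smallest that 3 libraries against 3 allow, and 0.12 adjusted over the 6 ratios compared). The medians of chromosomes 17 and 9 differ by -0.29, and relative to them the ratio differed by -0.21, still without overlap.

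The de novo enzymes moved in opposite directions. Dnmt3a, on the plus strand of chr12:3806980-3914443, was at 43.99, 44.40 and 27.25 CPM in 393P_vector cells and at 79.96, 69.97 and 82.50 CPM in 393P_ZEB1 cells. All ZEB1 libraries lay above all vector libraries. This was a log2 fold change of 1.01 (95% interval 0.55 to 1.46, adjusted p = 0.00547), a 2.01-fold increase, on a chromosome whose median was -0.14. Here 393P_vector replicate 3 was 0.70 below the other vector libraries on the log2 scale, and without it the log2 fold change was 0.81 (adjusted p = 4.49e-05). GENCODE M21 places an antisense transcript, Dnmt3aos, over 133 exonic bases of Dnmt3a. Reads from the 2 cannot be told apart, since whether the counting used strand is not given in the sources used here.

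Dnmt3b, on the plus strand of chr2:153649454-153687730, was at 4.13, 3.77 and 3.67 CPM in 393P_vector cells and at 0.692, 1.08 and 1.11 CPM in 393P_ZEB1 cells. These levels rested on 234, 222 and 305 counts and on 37, 60 and 68 counts, respectively, and the groups did not overlap. Dnmt3b fell by 2.0 on the log2 scale (95% interval -2.52 to -1.48, adjusted p = 0.00034), larger in size than that of the other 9 genes, and 8.08% of tested genes had a larger absolute change. The median of chromosome 2 was -0.05. Of the 25 exons listed for Dnmt3b, 4, 5 and 8 had more than 10 reads in the vector libraries and 1 in each ZEB1 library, so isoforms of Dnmt3b could not be compared at this depth.

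Per kb of exon, Dnmt3a exceeded Dnmt3b by 4.65, 5.14 and 3.25 times in 393P_vector libraries and by 50.6, 28.3 and 32.4 times in 393P_ZEB1 libraries. The geometric mean of the ratio thus rose from 4.27 to 35.9, an 8.42-fold difference. On the log2 scale the ratio differed by 3.07 (exact permutation p = 0.1, 0.12 adjusted over 6 ratios). This log2 difference was 2.88 without 393P_vector replicate 3 and 3.16 relative to the chromosome medians. As a share of the summed level of the 3 methyltransferases per kb of exon, Dnmt1 took 94.3% ± 0.206 (SD, n = 3) in 393P_vector cells and 88.7% ± 1.07 in 393P_ZEB1 cells. The share of Dnmt3a went from 4.59% ± 0.121 to 11% ± 1.13 and that of Dnmt3b from 1.1% ± 0.256 to 0.309% ± 0.0594. For each of the 3 shares the groups did not overlap (exact permutation p = 0.1). The summed level itself was 85.1 ± 20.3 CPM per kb in vector and 71.9 ± 5.34 CPM per kb in ZEB1 libraries.

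**Figure D3:**
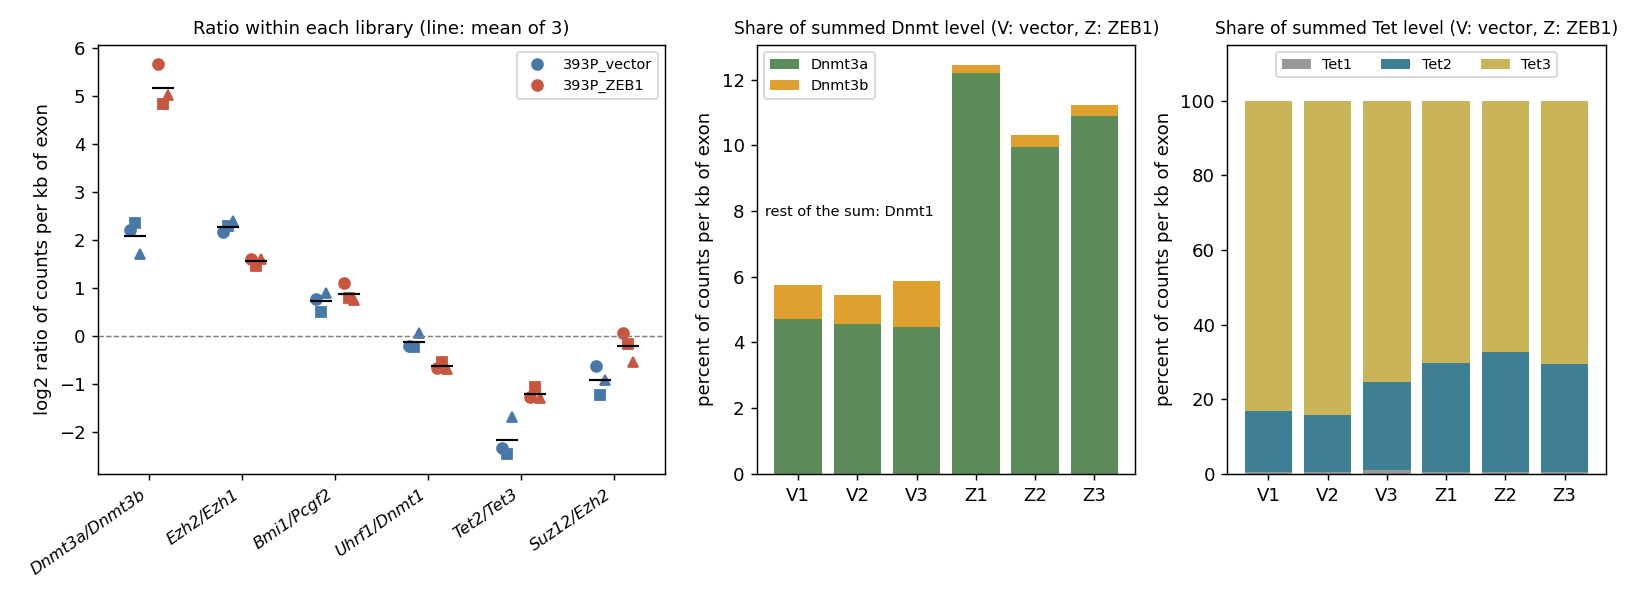
Left, log2 ratio of counts per kb of exon between related genes within each library (blue, 393P_vector, and red, 393P_ZEB1, with lines at group means). Middle and right, shares in percent of the summed Dnmt and Tet levels per kb of exon in each library. Dnmt3a over Dnmt3b is the ratio with the widest gap between groups, a mean log2 of 2.09 against 5.17, and Bmi1 over Pcgf2 is the ratio whose groups overlap.

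Of the Tet enzymes only Tet2 passed the threshold in these 6 libraries. Tet2, on the minus strand of chr3:133463677-133544390, was at 13.02, 11.75 and 12.35 CPM in 393P_vector cells and at 27.74, 26.71 and 25.80 CPM in 393P_ZEB1 cells. The spread within either group was small beside the gap between them. On the log2 scale Tet2 rose by 1.11 (95% interval 0.85 to 1.37, adjusted p = 0.000188), a 2.16-fold increase, on a chromosome with a median of 0.06, and it was 1.11 (adjusted p = 9.71e-06) without 393P_vector replicate 3 as well. An antisense transcript, Gm42567, covers 43 exonic bases of Tet2.

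Tet3, on the minus strand of chr6:83362374-83441678, was the most abundant Tet gene, at 78.18, 76.86 and 47.02 CPM in 393P_vector cells and 79.72, 65.92 and 74.82 CPM in 393P_ZEB1 cells. Its groups overlapped, and the log2 fold change of 0.13 had an interval from -0.34 to 0.59 (adjusted p = 0.653). Chromosome 6 had a median of -0.36, and relative to it the difference of Tet3 was 0.49 (adjusted p = 0.108). The value was -0.08 (adjusted p = 0.509) without 393P_vector replicate 3, in which Tet3 was 0.72 lower on the log2 scale than in the other vector libraries. Tet1, on the minus strand of chr10:62804570-62880014, was the least abundant of the 10 genes, with 34, 42 and 67 counts in 393P_vector and 48, 33 and 38 counts in 393P_ZEB1 libraries. At 0.601, 0.714 and 0.807 CPM against 0.897, 0.594 and 0.622 CPM its groups overlapped, and the interval of its log2 fold change of -0.01, from -0.62 to 0.59, covers changes of about 1.5-fold either way. The median of chromosome 10 was -0.30, relative to which Tet1 stood at 0.28 (adjusted p = 0.456).

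Within libraries, the ratio of Tet2 to Tet3 per kb of exon was 0.198, 0.182 and 0.312 in 393P_vector cells and 0.413, 0.481 and 0.410 in 393P_ZEB1 cells. All ZEB1 ratios were higher, by 0.95 on the log2 scale (exact permutation p = 0.1, 0.12 adjusted over 6 ratios). Relative to the medians of chromosomes 3 and 6 the difference was 0.53, and the groups then overlapped (exact permutation p = 0.3). Tet2 made up 18.4% ± 4.48 of the summed Tet level in vector and 30.1% ± 1.93 in ZEB1 libraries, Tet3 80.9% ± 4.73 and 69.4% ± 1.90, and Tet1 at most 1.0% in any library. The vector library nearest to the ZEB1 libraries in this share was replicate 3, at 23.5%.

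The core PRC2 subunits showed smaller differences. Ezh2, the methyltransferase, on the minus strand of chr6:47530274-47595030, was at 122.1, 132.1 and 110.1 CPM in 393P_vector cells and 105.0, 99.84 and 105.4 CPM in 393P_ZEB1 cells. The groups did not overlap, but the log2 fold change of -0.23 had an interval from -0.47 to 0.01 (adjusted p = 0.119). Chromosome 6 had a median of -0.36, and relative to it the difference of Ezh2 turned to 0.13 (adjusted p = 0.398), whereas without 393P_vector replicate 3 it was -0.30 (adjusted p = 0.00729). Suz12, on the plus strand of chr11:79993106-80034123, was at 130.6, 92.60 and 95.94 CPM in 393P_vector cells and 180.0, 147.3 and 118.9 CPM in 393P_ZEB1 cells. Replicate 1 of the vector group lay above replicate 3 of the ZEB1 group. The log2 fold change was 0.48 (95% interval 0.04 to 0.93, adjusted p = 0.0839), beside a median of 0.26 on chromosome 11 and of 0.37 among its 40 nearest tested neighbours. The long noncoding transcripts Gm26625 and Gm26563 lie antisense over 174 exonic bases of Ezh2 and 178 of Suz12.

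Within a library, Suz12 stood at 0.650, 0.426 and 0.529 of Ezh2 per kb of exon in 393P_vector cells and at 1.04, 0.896 and 0.685 in 393P_ZEB1 cells, a log2 difference of 0.71 with no overlap between groups. Ezh2 exceeded its paralog Ezh1, known as the form of less proliferative cells, by 4.46, 4.88 and 5.25 times in vector and by 3.04, 2.77 and 3.06 times in ZEB1 libraries, a log2 difference of -0.72, again with no overlap. Each gave an exact permutation p of 0.1, and 0.12 adjusted over 6 ratios. Ezh2 lies on chromosome 6, with its median of -0.36, and both Suz12 and Ezh1 on chromosome 11, with a median of 0.26. Relative to these medians the differences were 0.09 for Suz12 over Ezh2 (exact permutation p = 0.7) and -0.09 for Ezh2 over Ezh1 (exact permutation p = 0.4), with overlap in both, so neither ratio can be told apart from the chromosome shifts. Ezh1 itself rose from 39.7 ± 5.68 to 55.2 ± 1.47 CPM (log2 fold change 0.48, adjusted p = 0.0233), and it lies on chromosome 11, relative to which its difference was 0.21 (adjusted p = 0.256).

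Bmi1, the Pcgf subunit of canonical PRC1, on the plus strand of chr2:18677018-18686629, was at 51.22, 45.99 and 52.80 CPM in 393P_vector cells and 74.18, 59.19 and 59.67 CPM in 393P_ZEB1 cells. All ZEB1 libraries were higher, and replicate 1 stood above the other 2. The log2 fold change was 0.36 (95% interval 0.07 to 0.66, adjusted p = 0.0587), on a chromosome with a median of -0.05, relative to which Bmi1 passed (0.41, adjusted p = 0.0456), and without 393P_vector replicate 3 it was 0.40 (adjusted p = 0.0124). The ratio of Bmi1 to its paralog Pcgf2 ran from 1.42 to 1.86 in vector and from 1.67 to 2.14 in ZEB1 libraries and overlapped (log2 difference 0.16, exact permutation p = 0.5). Relative to the medians of chromosomes 2 and 11 it differed by 0.47, without overlap (exact permutation p = 0.1).

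Per kb of exon, the order of mean levels in 393P_vector cells was Dnmt1 (80.3 ± 19.2 CPM per kb, SD, n = 3), Uhrf1 (72.5 ± 9.92), Ezh2 (45.9 ± 4.16), Suz12 (24.4 ± 4.83), Bmi1 (13.95 ± 0.993), Tet3 (6.18 ± 1.62), Dnmt3a (3.92 ± 0.995), Tet2 (1.35 ± 0.0696), Dnmt3b (0.898 ± 0.0566) and Tet1 (0.0503 ± 0.00733). Libraries of neighbours overlapped for Dnmt1 and Uhrf1 and for Tet3 and Dnmt3a. In 393P_ZEB1 cells Dnmt3a (7.88 ± 0.674 CPM per kb) and Tet3 (6.75 ± 0.642) stood in the reverse order and still overlapped, and the other genes kept their order. There, Dnmt1 (63.8 ± 5.16) no longer overlapped Uhrf1 (41.3 ± 3.83), which overlapped Ezh2 (39.1 ± 1.17), which overlapped Suz12 (34.1 ± 7.01). The other levels per kb were 17.95 ± 2.38 CPM for Bmi1, 2.92 ± 0.106 for Tet2, 0.224 ± 0.0546 for Dnmt3b and 0.0501 ± 0.0119 for Tet1.

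Other subunits and partners were counted from lists that do not include the 10 genes. Over all 6 lists with tested genes, 8 of 72 rose and 14 fell, or 30.6% against 37.6% of all tested genes. Without 393P_vector replicate 3 these counts were 17 and 23, where 26.2% of all tested genes were called higher, 26.8% lower and 53.0% in all. For the lists below, the matching shares of all tested genes are 18.3% higher and 19.3% lower in all 6 libraries. Relative to the chromosome medians they are 16.1% and 14.3%.

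Among 12 tested partners of DNA methylation, 2 rose and 0 fell, or 16.7% called against 37.6% of all tested genes. Both are zinc finger proteins that bind methylated DNA. Zbtb4 rose from 59.7 ± 7.47 to 110.6 ± 11.6 CPM (log2 fold change 0.89, adjusted p = 0.00156) and Zbtb38 by 0.33 on the log2 scale (adjusted p = 0.0395). Dnmt3l, the catalytically inactive partner of the de novo enzymes, did not pass the filter on low counts, with at most 4 counts in any library. The Uhrf1 paralog Uhrf2 was at 176.2 ± 4.71 and 173.6 ± 0.338 CPM (log2 fold change -0.02, 95% interval -0.22 to 0.18). Hells, a chromatin remodeler needed for DNA methylation, was at 220.7 ± 32.5 and 167.9 ± 14.6 CPM (log2 fold change -0.40, adjusted p = 0.0501). Without 393P_vector replicate 3, 3 partners rose and 3 fell, Hells among the latter (-0.27, adjusted p = 0.0226). Relative to the chromosome medians 2 rose, again Zbtb4 and Zbtb38, and 2 fell.

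Of the 9 other PRC2 subunits, all tested, Ezh1 and Rbbp4 rose and Phf19 fell, and the list's median was 0.15. The share called was 33.3%, against 37.6% of all tested genes. Without 393P_vector replicate 3, 4 rose and 1 fell, and relative to the chromosome medians 0 rose and 1 fell. Phf19, an accessory subunit that directs PRC2 to chromatin, went from 40.4 ± 7.81 to 21.1 ± 1.22 CPM (log2 fold change -0.94, adjusted p = 0.00303), with chromosome 2 at a median of -0.05. Rbbp4, a histone chaperone shared with other complexes, rose by 0.34 on the log2 scale (adjusted p = 0.0338), and relative to its chromosome it did not pass (adjusted p = 0.0559). Of the 20 other PRC1 subunits, all tested, 5 fell and 0 rose, with a median of -0.18. Without 393P_vector replicate 3, 8 of them fell and 2 rose. Cbx7, a chromodomain subunit that reads the PRC2 mark, fell from 12.47 ± 1.59 to 4.40 ± 0.621 CPM (log2 fold change -1.50, adjusted p = 0.000359), beyond the median of -0.33 on chromosome 15. Scmh1, an accessory subunit, fell from 10.3 ± 0.0413 to 5.94 ± 0.234 CPM (log2 fold change -0.79, adjusted p = 0.00198). The other 3 were Pcgf1 (-0.87), Pcgf6 (-0.58) and Phc3 (-0.46), which fall outside the rule for named genes and were named after their values were seen. Pcgf1 was low, at 2.22 ± 0.223 CPM in vector and 1.22 ± 0.207 CPM in ZEB1 libraries. Relative to its chromosome Pcgf1 did not pass (adjusted p = 0.0992). None of the 6 tested enzymes and cofactors that remove Polycomb marks, such as the demethylases Kdm6a and Kdm6b, passed edgeR's threshold, and Bap1, which deubiquitinates histone H2A, fell without 393P_vector replicate 3 (log2 fold change -0.32, adjusted p = 0.00325) but stood at 0.13 (adjusted p = 0.619) relative to its chromosome.

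**Figure D4:**
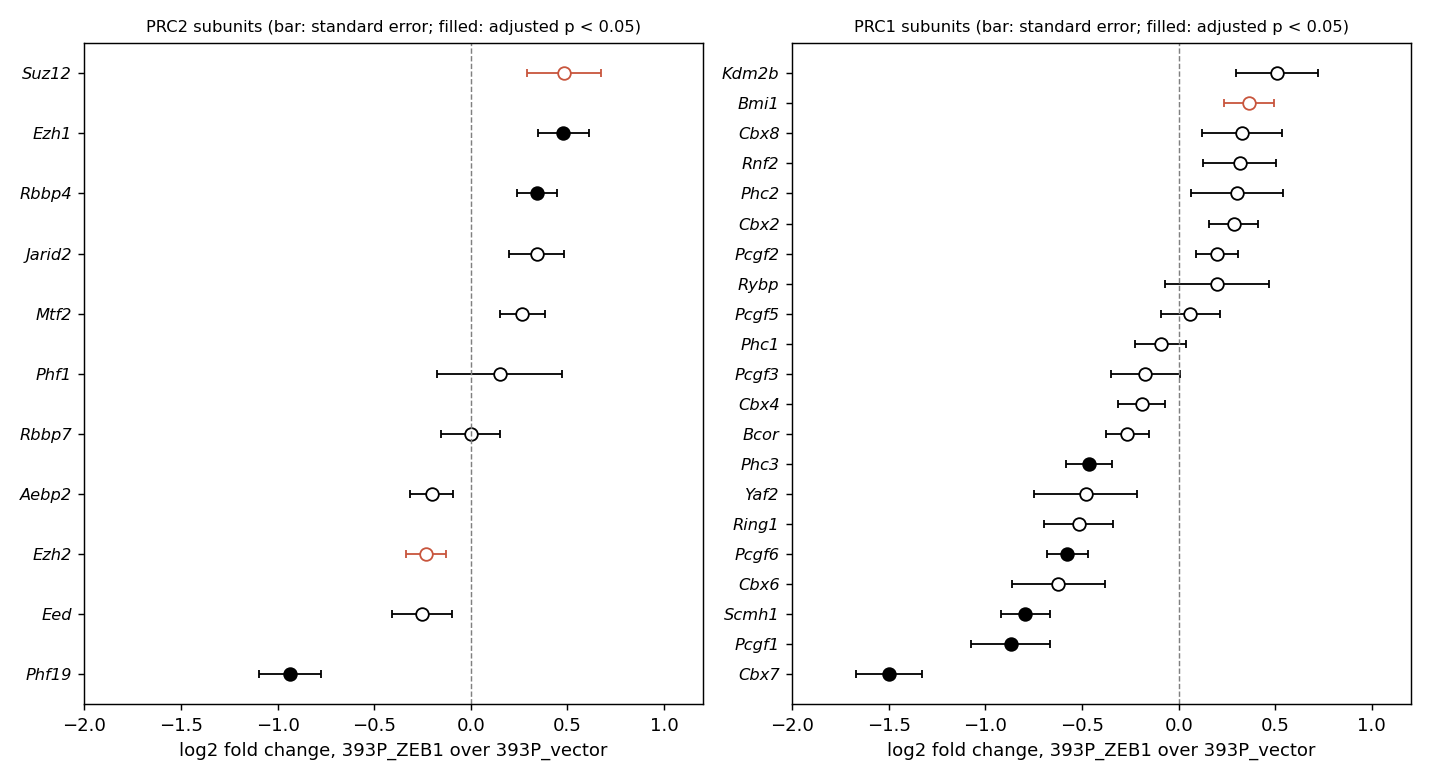
Log2 fold change (393P_ZEB1 over 393P_vector, edgeR) of each PRC2 subunit (left) and PRC1 subunit (right), with its standard error, filled where adjusted p is below 0.05. Red marks Ezh2, Suz12 and Bmi1, which do not pass the threshold, and the lowest values are those of Phf19 (-0.94) among PRC2 and Cbx7 (-1.50) among PRC1 subunits.

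Genes known to be silenced by this machinery were counted as well. The 12 germline genes known to depend on DNA methylation for silencing, such as Dazl and Ddx4, all stayed under the filter on low counts, and their summed level was 0.618 to 0.697 CPM in vector and 0.491 to 0.766 CPM in ZEB1 libraries. Of 15 regulators known as Polycomb targets, 7 were tested, of which 1 rose and 3 fell, or 2 and 4 without 393P_vector replicate 3. In all 6 libraries that made 57.1% called, against 37.6% of all tested genes. That share covers only the 7 that passed the filter on low counts, which a gene can pass through 1 group alone. It therefore does not describe the 15 as a set. The locus Cdkn2a, which encodes inhibitors of cell-cycle entry, rose from 178.0 ± 18.7 to 324.9 ± 35.7 CPM (log2 fold change 0.87, adjusted p = 0.00136), without a distinction between its overlapping products. Gata6, a transcription factor of endoderm and lung, fell from 24.1 ± 5.24 to 7.91 ± 1.55 CPM (log2 fold change -1.61, adjusted p = 0.00073) on chromosome 18, whose median was 0.64. The other 2 that fell, also outside the rule for named genes and named after their values were seen, were developmental factors. They were Pax6 (log2 fold change -4.51, adjusted p = 8.28e-06) and Pax3 (-1.72, adjusted p = 0.00423). The rule left them out for a mean level under 5 CPM or for overlap between groups. Their fold changes may therefore rest on low counts.

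Because Dnmt1, Uhrf1 and Ezh2 are known to be transcribed with S phase, 18 genes of S phase and mitosis were set beside them. Of these, 3 rose and 5 fell, with a median of 0.16. The share called was 44.4%, against 37.6% of all tested genes. Ccne1, a cyclin of S phase entry, rose by 0.92 on the log2 scale (adjusted p = 0.000592) and the replication clamp Pcna by 0.32 (adjusted p = 0.0388). The replicative helicase subunits Mcm3 and Mcm2 fell by 0.69 (adjusted p = 0.0165) and 0.68 (adjusted p = 0.0122), and relative to its chromosome Mcm2 did not pass (-0.32, adjusted p = 0.169). Without 393P_vector replicate 3, 6 rose and 6 fell. Relative to the chromosome medians 2 rose and 4 fell, and the list's median was -0.09. The part of proliferation in the values of Dnmt1, Uhrf1 and Ezh2 was not tested.

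For the microRNAs shown above, reads on the hairpin genes are the only measure here, and they do not give the mature microRNA. Mir200b had 29, 26 and 54 counts in 393P_vector libraries and 0 in all ZEB1 libraries, and Mir200c had 78, 70 and 125 against 1, 0 and 0. Mir429, with 9, 8 and 13 counts, and Mir200a, with 8, 5 and 15, were also at 0 in all ZEB1 libraries, whereas Mir141 had 0 counts in the vector libraries and 1, 0 and 0 in the ZEB1 libraries. Mir29a was counted 128, 97 and 203 times in vector and 150, 135 and 100 times in ZEB1 libraries, and these ranges overlapped.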

How the data were processed

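Groups of the 6 RNA-seq libraries follow their labelled condition, and none was left out. The authors deposited, for each RefSeq feature, the unnormalized read count, the number of exons with more than 10 reads and the RPKM. RPKM, the count scaled by exon length and by the reads of the library, implied totals of 99.1% to 99.32% of the summed counts and was used only for this check. The files use GRCm38 coordinates. Neither aligner nor counter is given in the sources used here, and no test is stated for this dataset.

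Counts were tested in R 4.3.3 with edgeR 4.0.16 (robust quasi-likelihood fit, TMM, filterByExpr with a minimum count of 10, Benjamini-Hochberg adjustment, threshold 0.05). Of 24214 features 13892 were tested. The biological coefficient of variation was 0.184, the limit of 3 counts covers counting error only, and intervals of fold changes include the spread between libraries. Single values and 6 within-library ratios per kb of exon were compared by exact two-sided permutation tests. The members and lists were chosen with earlier results of these data known. Context genes were named by a rule, up to 2 rising and 2 falling genes per list that passed the threshold, did not overlap between groups and averaged at least 5 CPM, besides the 10 genes, their partners in ratios, Zeb1 and the listed hairpins. Dnmt3l, Uhrf2, Hells, Kdm6a, Kdm6b, Bap1, Dazl, Ddx4 and the named cell type markers are outside that rule and were named with their values known. Sequences were read from RefSeq tables and GENCODE M21.

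Alternatives were DESeq2's size factors, DESeq2 1.42.0 (Wald test), no filter, a replicate block, voom with sample weights in limma 3.58.1, a chromosome median offset and leaving out each library, and, chosen after seeing the data, a GC trend offset over the 91.5% of tested genes with a known GC content and ratios relative to chromosome medians. In data simulated with 200 changed genes of 13890, with a dispersion of 0.02, lower than in these libraries, so that recovery here may be lower, edgeR recovered 36.8% at 1.5-fold, 90.6% at 2-fold and 100% at 4-fold, with 5.81% false calls. Python 3.11.15, pandas 2.3.3, NumPy 2.4.6, SciPy 1.17.1 and matplotlib 3.10.9 were used for the other steps.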

Additional observations from a re-analysis of the deposited data

How the results depend on the processing

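Over 13 alternatives and 10 genes, 111 of 130 log2 fold changes kept their direction and their side of the threshold. Ratios, recomputed by leaving out each library, with the replicate block (which equals the main value by construction) and relative to chromosome medians, moved by less than the spread between replicates in 43 of 48 values. The other 5, relative to chromosome medians, were -0.09 for Ezh2/Ezh1, 0.47 for Bmi1/Pcgf2, -0.21 for Uhrf1/Dnmt1, 0.53 for Tet2/Tet3 and 0.09 for Suz12/Ezh2. Dnmt3a and Tet2 rose and Dnmt3b fell under every alternative run, and Uhrf1 fell under all of them except the chromosome median offset (-0.38, adjusted p = 0.0668). That offset, which by construction takes off what a chromosome shares, left 1 member lower instead of 2, made Bmi1 pass (0.41, adjusted p = 0.0456) and turned Ezh2 to 0.13 and Tet1 to 0.28, neither past the threshold. Limma with sample weights called 4 members lower, 20 and 24 listed genes higher and lower, and 3977 and 4094 of all genes, and turned Tet1 to 0.02 and Tet3 to -0.10. Leaving out 1 library, Tet1 ranged from -0.22 to 0.10 and Tet3 from -0.08 to 0.25. Tet1 turned to 0.09, 0.10 and 0.08 without 393P_vector replicate 3, 393P_ZEB1 replicate 2 and 393P_ZEB1 replicate 3, and Tet3 to -0.08 without 393P_vector replicate 3. Suz12 passed without 393P_vector replicate 1 (0.66, adjusted p = 0.0358), and Bmi1 in DESeq2's Wald test (0.37, adjusted p = 0.0438). The 8 listed genes that rose became 5 without the filter, 5 with the chromosome offset and 13 with the GC trend offset. The cause of these changes was not tested.

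Leaving out 1 library moved members called lower between 2 and 4, listed genes called higher between 3 and 17 and lower between 8 and 23, and all genes called lower between 1784 and 3776 and higher between 1861 and 3700. The highest of these counts came without 393P_vector replicate 3, where Dnmt1 (-0.52), Ezh2 (-0.30) and Bmi1 (0.40) also passed. With the replicate block, listed genes called higher numbered 5, Suz12 passed (0.48, adjusted p = 0.0333) and the values were 1.04 for Dnmt3a, -2.02 for Dnmt3b, -0.81 for Uhrf1 and 1.11 for Tet2. The block changed no other call of a member. Across genes, the deviations of libraries from their group correlated at 0.195, -0.126 and -0.028 for equal numbers and between -0.12 and 0.157 for unequal ones. Deviations within a group cancel by construction, so these values cannot decide whether libraries of equal number were handled together. The lowest counts behind a member were those of Tet1, at most 67, and Dnmt3b, at most 305.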
